A study of Rattus norvegicus with 12 samples.

Results

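MicroRNAs (miRNAs) known from red blood cells were followed in aortas of female spontaneously hypertensive rats (SHR), inbred animals whose blood pressure rises with age. They were taken as all rows of the deposited table for the hairpins miR-144, miR-451 and miR-486, every arm included, which gave 5 of 641 listed miRNAs: rno-miR-144-5p, rno-miR-144-3p, rno-miR-451-5p, rno-miR-451-3p and rno-miR-486, written without the prefix for rat from here on. The rule uses names only. Small RNA was sequenced from 12 aorta samples. The 6 control samples had received saline and the other 6 carried the treatment label EWH, a term the labels do not spell out, while the title of the series speaks of peptides from egg white and of blood pressure. All 12 samples came from female SHR. No dose, time, age or other allele was given, nothing tells whether animals were pooled, and there was no group of another strain. Whether each sample is a different rat is not stated, so p-values reflect no more than how far these samples varied, which may be technical.

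Levels are in rpm, the reads of a miRNA scaled by the total of its library. Libraries held 23887799 to 24772944 reads in total. A single read thus equalled 0.0404 to 0.0419 rpm, and the floor used here, 3 reads, equalled 0.121 to 0.126 rpm. Over the 30 pairs of libraries within a group, chi-square divided by its degrees of freedom was 119 to 3184, above counting noise, so no pair was taken as 1 library deposited more than once. This does not tell separate animals from separate preparations. The labels name no batch. EWH 3 and EWH 4 were known to stand apart from the other libraries in earlier results on these data, and the group differences, ratios and correlations of the members were also computed without them.

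miR-144 and miR-451 are made from a shared primary transcript that the erythroid transcription factor GATA1 switches on, and both accumulate as red cell precursors mature. miR-451 is the best-known miRNA that skips cleavage by Dicer: its short hairpin is cut by Argonaute 2 and then trimmed, and the other arm is not released as a separate product. miR-486 comes from an intron of Ank1, the gene of the red cell membrane skeleton protein ankyrin, and is known both from red cells and from striated muscle. In a vessel wall these miRNAs are often read as a trace of blood. In such bulk tissue, fewer red cells and less RNA per cell cannot be told apart.

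Mature sequences from RefSeq (GRCr8) were matched to 4 of the 5 rows, all but miR-486. The 4 sequences are shown because their seeds (bases 2 to 8, in capitals), which direct target pairing, all differ, so these 4 share a locus but not a seed.
miR-144-5p: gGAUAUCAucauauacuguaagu
miR-144-3p: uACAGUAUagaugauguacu
miR-451-5p: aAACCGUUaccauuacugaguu
miR-451-3p: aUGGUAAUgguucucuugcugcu

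The hairpins lie next to each other on the plus strand of chromosome 10 of GRCr8, with 89 bases between them, in the interval between the genes Flot2 and Eral1. This is the assembly of the sequence table; the submitters' processing notes name rn6, and the deposited table holds no coordinates. Both hairpins are shown because the place of the mature miRNA in them differs, with both arms in capitals for Mir144 (chr10:63459397-63459479) and only the 5p arm in capitals for Mir451a (chr10:63459569-63459640).
Mir144: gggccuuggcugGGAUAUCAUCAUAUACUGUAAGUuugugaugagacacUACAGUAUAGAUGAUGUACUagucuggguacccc
Mir451a: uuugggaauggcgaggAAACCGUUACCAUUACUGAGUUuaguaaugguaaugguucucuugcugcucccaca

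In the predicted fold of lowest energy, miR-451-5p takes up all 4 bases of the terminal loop of its hairpin. Neither arm of miR-144 reaches into the 6-base loop of its own.

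miR-486 was the most abundant of the 5, followed by miR-451-5p, miR-144-5p and miR-144-3p. Ranked by mean level among the 641 listed miRNAs they stood at 78, 122, 172 and 199. Together the 5 rows summed to 80.4 rpm in the lowest library and 385 rpm in the highest, or 0.0105% to 0.0492% of the reads in listed miRNAs. Levels of different miRNAs are compared here as rpm of mature sequences of near-equal length, and a difference in cloning efficiency between sequences was not tested.

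miR-451-5p lay at 13.2 rpm in the lowest control library, 47.0 rpm at the control median and 67.5 rpm in the highest. In EWH the lowest library read 14.9 rpm, the median was 29.7 rpm and the highest read 59.2 rpm. The ranges overlap over almost their whole width. Control 1 (325 reads) and EWH 3 (367 reads) were the lowest of all, and control 6 (1653 reads) was the highest.

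miR-486 showed the same kind of spread at a higher level. Its control libraries ran from 61.4 rpm through a median of 171 rpm to 263 rpm. Its EWH libraries ran from 91.6 rpm through a median of 131 rpm to 288 rpm. Control 1 was again the lowest library and EWH 5 the highest. miR-486 exceeded miR-451-5p in 12 of 12 libraries.

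miR-144-5p ran from 4.02 rpm through a median of 17.4 rpm to 22.4 rpm in control, and from 8.44 rpm through 10.4 rpm to 24.8 rpm in EWH. miR-144-3p ran from 1.75 rpm through a median of 8.68 rpm to 14.3 rpm in control, and from 3.46 rpm through 5.52 rpm to 14.5 rpm in EWH. For miR-144-3p the libraries fell on both sides of a gap, with 7 libraries at or below 5.76 rpm and 5 at or above 11.6 rpm. The upper 5 were controls 2, 4 and 6 and EWH 1 and 5, so both treatment groups lay on both sides.

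miR-451-3p was the exception, at 0 to 5 reads per library. It was listed at 0 in 3 libraries (control 4, control 5 and EWH 3) and reached 3 reads or more in 5. Its highest level was 0.202 rpm, so it missed the filter for testing (at least 1 rpm in at least 6 libraries), which the other 4 members passed with 12 of 12 libraries above 1 rpm. Over all libraries it had 23 reads against 11173 of miR-451-5p, a share of 0.205% of the reads of both rows (exact 95% binomial interval 0.130% to 0.308%, for counting error only).

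**Figure D1:**
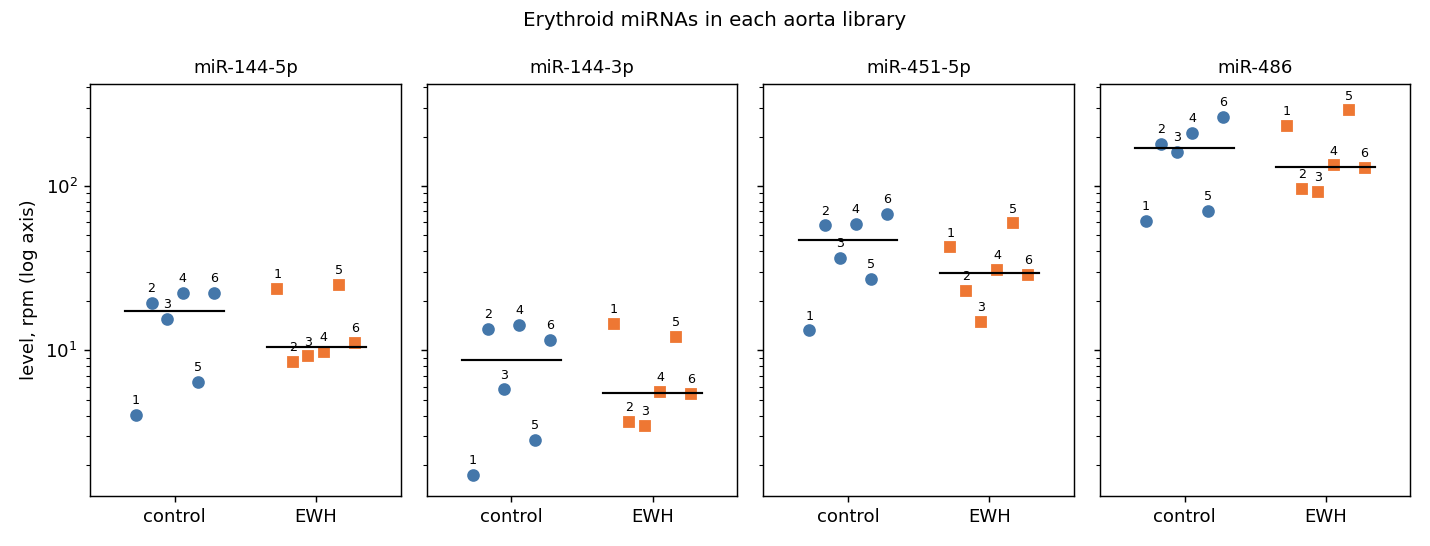
Level of miR-144-5p, miR-144-3p, miR-451-5p and miR-486 in each library (rpm, log axis), with circles for control, squares for EWH, the replicate number above each point and a black line at the group median. Control 1 is lowest in all 4 panels, at 4.02, 1.75, 13.2 and 61.4 rpm, and in each panel the 2 groups overlap.

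The first comparison asked whether these miRNAs differed between EWH and saline, and none did by any test used. miR-451-5p averaged 43.4 ± 21.2 rpm in control against 33.1 ± 15.6 rpm in EWH (± SD, n = 6 per group, as for the next 3). miR-486 averaged 158 ± 78.9 rpm and 162 ± 80.2 rpm, miR-144-5p 15.0 ± 8.01 rpm and 14.5 ± 7.63 rpm, and miR-144-3p 8.28 ± 5.52 rpm and 7.45 ± 4.65 rpm. In each case the difference of means was smaller than the SD of either group.

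The groups were compared with limma on log2(rpm + 1) over the 303 miRNAs that passed the filter, a scale that understates changes of low miRNAs. On it the difference EWH minus control was −0.32 (SE 0.41) for miR-451-5p, with a Benjamini-Hochberg adjusted p = 0.667. It was 0.09 (SE 0.41) for miR-486, with limma adjusted p = 0.913. It was 0.04 (SE 0.43) for miR-144-5p (limma adjusted p = 0.967) and −0.03 (SE 0.49) for miR-144-3p (limma adjusted p = 0.980). Of the 4 tested members, 2 had a higher and 2 a lower mean log2 value in EWH, with a median of 0.01, where the median over all 303 was −0.06.

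None of the 4 passed limma at an adjusted p under 0.05, and 0% of all 303 did. Without adjustment, limma gave a p under 0.05 to 0 of the 4, against 23.1% of the 303 (70 miRNAs). On recovered whole reads, the quasi-likelihood test of edgeR called 0 of the 4 against 13.2% of the 303, and DESeq2 called 0 of the 4 against 20.8%. Groups failed to overlap for 0 of the 4 and for 1.65% of the 303.

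The spread between libraries set how small a difference could be seen. The 95% limma interval of the log2 difference ran from −1.22 to 0.57 for miR-451-5p, from −0.80 to 0.97 for miR-486, from −0.91 to 0.98 for miR-144-5p and from −1.08 to 1.03 for miR-144-3p. As folds of EWH over control these intervals are 0.430 to 1.48 for miR-451-5p, 0.576 to 1.96 for miR-486, 0.533 to 1.98 for miR-144-5p and 0.472 to 2.05 for miR-144-3p. A missed threshold does not show that the groups are equal.

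The sign of a difference this small moved with single libraries. Without control 1 the log2 difference was −0.62 for miR-451-5p, −0.14 for miR-486, −0.25 for miR-144-5p and −0.32 for miR-144-3p, with limma adjusted p from 0.283 to 0.843 (Benjamini-Hochberg). Without EWH 3 and EWH 4 it was −0.09 for miR-451-5p, 0.29 for miR-486, 0.25 for miR-144-5p and 0.21 for miR-144-3p. Only miR-451-5p kept 1 sign, negative, in all 25 alternative settings run.

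**Figure D2:**
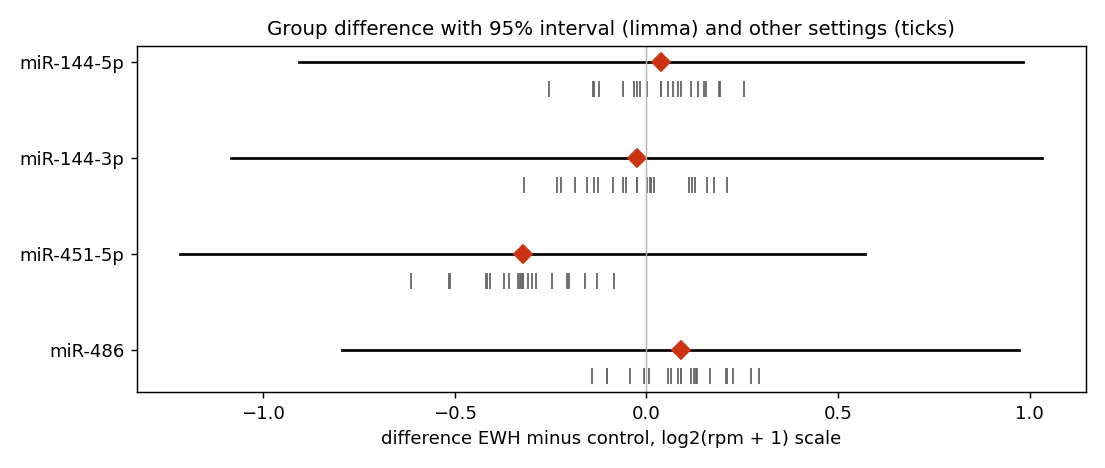
Difference EWH minus control on the log2(rpm + 1) scale for each tested member (diamond) with its 95% limma interval (line), and below it a tick for each alternative setting. All 4 intervals span 0, and the ticks lie on both sides of 0 except for miR-451-5p, where they run from −0.62 to −0.09.

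These miRNAs varied widely between libraries of the same group. The highest control library exceeded the lowest 5.12-fold for miR-451-5p, 4.28-fold for miR-486, 5.58-fold for miR-144-5p and 8.19-fold for miR-144-3p. Within EWH these folds were 3.96, 3.15, 2.94 and 4.18. Within a group, the pooled SD of log2(rpm + 1) was 0.77 for miR-451-5p, 0.77 for miR-486, 0.81 for miR-144-5p and 0.92 for miR-144-3p. The median of that SD over the 303 tested miRNAs was 0.33, and by it the members ranked 51, 53, 47 and 37 of 303. Counting error was small beside it. The lowest value, 43 reads of miR-144-3p in control 1, has an exact 95% Poisson interval of 1.26 to 2.35 rpm, while the other controls read 2.85 to 14.3 rpm.

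The 4 members rose and fell together from library to library. Control 1 was the lowest library for all 4. The 5 highest libraries were the same for each member, control 2, 4 and 6 and EWH 1 and 5, and control 3 ranked sixth for each. Over 12 libraries and 6 pairs of members, Pearson's r of log2(rpm + 1) ran from 0.901 to 0.976 (permutation p adjusted over the 6 pairs by Benjamini-Hochberg, 3e-05 to 9e-05, where 1e-05 is the smallest unadjusted p that 100000 resamples can give). Spearman's rho ran from 0.846 to 0.979 (permutation p adjusted over the 6 pairs, 3e-05 to 0.00089). All 4 share each library's total.

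The closest pair were miR-144-5p and miR-486, with r = 0.976 and rho = 0.979, which come from separate hairpins. miR-144-5p and miR-144-3p, cut from the same hairpin, had r = 0.967 and rho = 0.909. miR-451-5p had r = 0.904 and rho = 0.951 with miR-486, r = 0.901 and rho = 0.909 with miR-144-5p, and r = 0.917 and rho = 0.846 with miR-144-3p.

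The relations held within each group and with each library left out. Within control (6 libraries) r ran from 0.939 to 0.983 over the 6 pairs, and within EWH (6 libraries) from 0.864 to 0.972. Without the 2 libraries farthest from the median of the first member of a pair, r ran from 0.876 to 0.962. With each library left out in turn, the lowest of the 6 r values was between 0.856 and 0.925. Because of the gap in miR-144-3p the pairs were also taken over the 7 libraries below it, where r ran from 0.735 to 0.972 and rho from 0.821 to 1.0. The 5 libraries above it were too few.

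**Figure D3:**
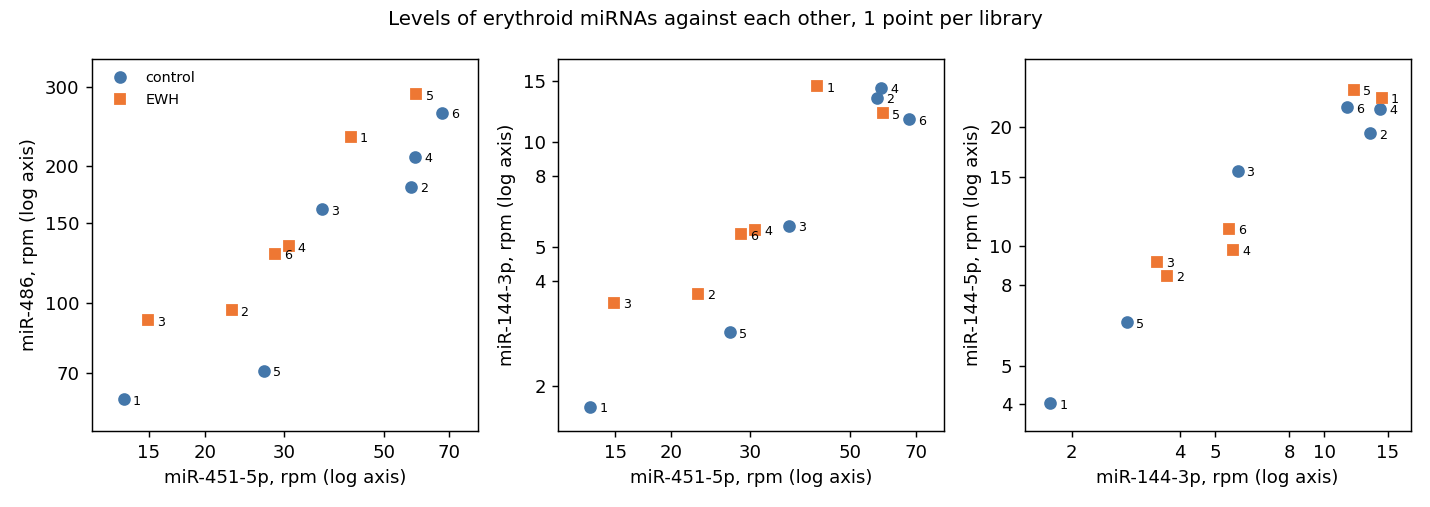
Levels of pairs of members in each library (rpm, both axes log), miR-486 and miR-144-3p against miR-451-5p and miR-144-5p against miR-144-3p, with circles for control, squares for EWH and the replicate number beside each point. Points run from control 1 at the lower left to control 2, 4 and 6 and EWH 1 and 5 at the upper right, with both groups along the whole course.

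Ratios between members within a library remove most of this shared movement. The pooled within-group SD of the log2 ratio, taken as log2 of (rpm + 1) over (rpm + 1), was 0.24 for miR-144-5p to miR-144-3p, 0.26 for miR-486 to miR-451-5p and 0.33 for miR-451-5p to miR-144-3p, all below the SD of 0.77 to 0.92 of single members. The 4 ratios were compared between the groups by a two-sided exact permutation test over the 12 libraries, with Benjamini-Hochberg adjustment over the 4.

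The ratio of the arms of the miR-144 hairpin did not differ detectably. miR-144-5p exceeded miR-144-3p in 12 of 12 libraries, by 1.44-fold in control 2 to 2.69-fold in control 3. The log2 ratio was 0.85 ± 0.28 in control against 0.91 ± 0.19 in EWH (± SD, n = 6 per group; exact permutation p = 0.649, adjusted p = 0.805).

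The ratio of miR-451-5p to miR-144-3p, products of neighbouring hairpins, was 2.36 ± 0.33 in control against 2.06 ± 0.33 in EWH on the log2 scale (± SD, n = 6 per group; exact permutation p = 0.158, adjusted p = 0.316). As a plain ratio of rpm it ran from 2.92 in EWH 1 to 9.49 in control 5. Of the 6 EWH libraries, 2 (EWH 1 and EWH 3) lay below every control.

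The ratio of miR-486 to miR-451-5p was the one with the smallest p. Its log2 value ran from 1.36 to 2.14 in control and from 2.02 to 2.54 in EWH. The means were 1.83 ± 0.30 and 2.24 ± 0.21 (± SD, n = 6 per group), a difference of 0.41 or 1.33-fold (exact permutation p = 0.0195, adjusted p = 0.0779), which misses the threshold of 0.05. EWH 1, EWH 3 and EWH 5 lay above every control, and EWH 2, EWH 4 and EWH 6 within the controls' range. As plain ratios the control mean was 3.71 ± 0.77 and the EWH mean 4.92 ± 0.76 (± SD, n = 6 per group). Without control 1, whose ratio was the highest of the controls, the difference was 0.47 and passed (exact permutation, adjusted p = 0.0433). Over all 16 alternatives its adjusted p ran from 0.0433 to 0.210, the highest without EWH 3 and 4 together.

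miR-451 is set against miR-23a-3p, which red cells hold little of, as an index of burst red cells in plasma. In these aortas miR-23a-3p averaged 887 ± 282 rpm in control against 746 ± 189 rpm in EWH (± SD, n = 6 per group). The log2 ratio of miR-451-5p to miR-23a-3p was −4.45 ± 0.70 in control against −4.54 ± 0.60 in EWH (± SD, n = 6 per group; exact permutation p = 0.805, adjusted p = 0.805). It ran from −5.58 in EWH 3 to −3.56 in control 6, so miR-23a-3p was the more abundant in every library, and the sign of the group difference turned without control 4, control 6 or EWH 3, and without EWH 3 and 4 together.

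**Figure D4:**
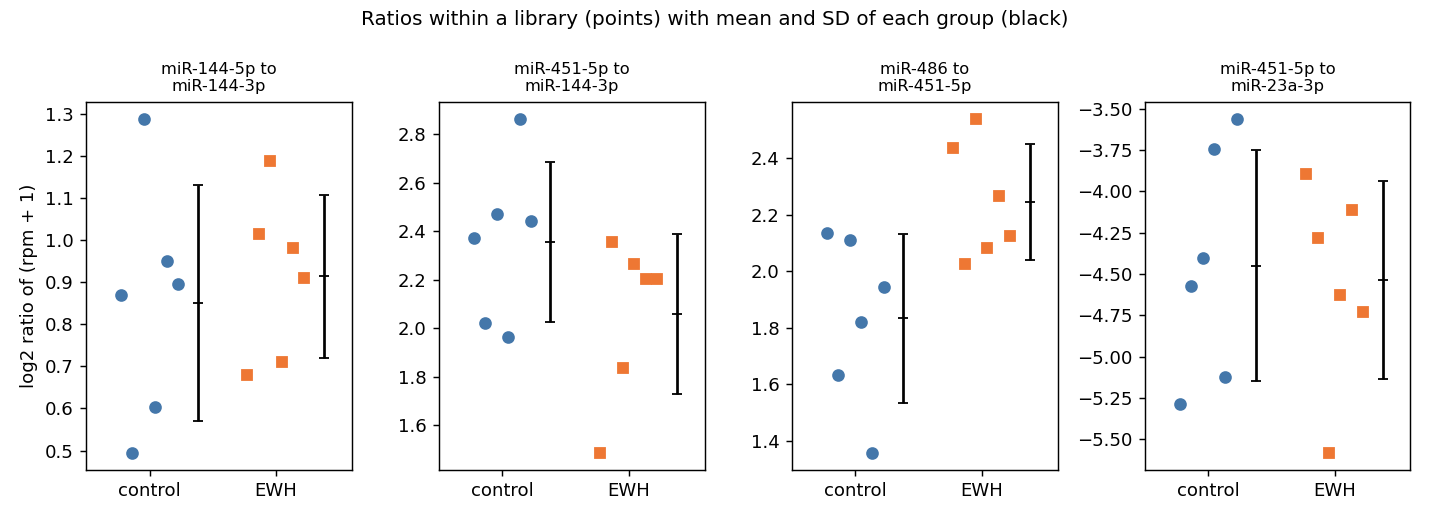
Log2 ratio of (rpm + 1) between pairs of miRNAs in each library, with circles for control, squares for EWH and the mean and SD of each group in black; each panel has its own axis. The groups overlap in all 4 panels, and the widest separation relative to spread is in miR-486 to miR-451-5p, at 1.83 ± 0.30 against 2.24 ± 0.21.

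miR-144-3p shares bases 2 to 7, but not base 8, with both miR-101 miRNAs, which come from other chromosomes. They are shown because part of the seed of miR-144-3p is thereby present in the aorta from another source at a higher level.
miR-101a-3p: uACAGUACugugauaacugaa
miR-101b-3p: uACAGUACugugauagcugaa
No other listed miRNA with a RefSeq sequence (581 of 641) shared bases 2 to 7 with any of the 4 rows.

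miR-101a-3p averaged 205 ± 42.0 rpm and miR-101b-3p 34.6 ± 5.09 rpm (SD, n = 12), against 7.87 rpm for miR-144-3p. miR-144-3p made up 2.88% ± 1.63 of the summed rpm of the 3 in control against 3.26% ± 1.87 in EWH (± SD, n = 6 per group), from 0.869% in control 1 to 6.08% in EWH 5. The log2 difference EWH minus control was −0.24 (SE 0.17) for miR-101a-3p and −0.17 (SE 0.14) for miR-101b-3p, with Benjamini-Hochberg adjusted p of 0.449 and 0.526 by limma.

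To see what else varied like the members, each tested miRNA was correlated with miR-451-5p and with miR-486 over the 12 libraries, after group means were removed from log2(rpm + 1). These r values are descriptions without a test, and all miRNAs of a library share its total. The other 3 tested members headed both orders. With miR-451-5p they had r from 0.931 to 0.944, where the 299 other tested miRNAs had a median of −0.03 and reached at most 0.838. With miR-486 they had r from 0.944 to 0.977, where the others reached at most 0.839. With each library left out in turn, no other tested miRNA had a higher r than the lowest of these 3, for either. For miR-486 the gap became narrow without some libraries. Without control 2, miR-142-5p reached r = 0.932 with it, beside 0.946 for the lowest member. Without EWH 4, miR-455-5p reached r = 0.927 with it, beside 0.947 for the lowest member. For miR-451-5p the highest r of another miRNA was 0.873 (miR-455-5p without EWH 4), beside 0.940 for the lowest member.

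The 5 other miRNAs most like miR-451-5p were miR-3120 (r = 0.838, rho = 0.797), miR-142-5p (r = 0.820, rho = 0.776), miR-152-3p (r = 0.750, rho = 0.322), miR-455-5p (r = 0.745, rho = 0.783) and miR-23b-3p (r = 0.734, rho = 0.762). Those most like miR-486 were miR-142-5p (r = 0.839, rho = 0.832), miR-3120 (r = 0.761, rho = 0.790), miR-455-5p (r = 0.750, rho = 0.741), miR-15b-5p (r = 0.725, rho = 0.853) and miR-133a-3p (r = 0.704, rho = 0.671). miR-142 is a blood cell miRNA and miR-133a a muscle miRNA. Without control 1, r with miR-451-5p was 0.759 for miR-3120, 0.740 for miR-142-5p, 0.789 for miR-455-5p, 0.492 for miR-152-3p and 0.530 for miR-23b-3p. Without it, r with miR-486 was 0.778 for miR-142-5p, 0.666 for miR-3120, 0.747 for miR-455-5p, 0.726 for miR-15b-5p and 0.570 for miR-133a-3p.

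Other miRNAs known from red cells followed less closely. Of 14 such miRNAs, all tested, 13 had r above 0 with miR-451-5p, with a median of 0.316 and a range of −0.116 to 0.691. The closest was miR-15b-5p (r = 0.691, rho = 0.867), at 1.57 to 6.21 rpm. The most abundant were miR-22-3p (4443 rpm; r = −0.116, rho = −0.189), miR-25-3p (389 rpm; r = 0.302, rho = 0.175) and miR-16-5p (190 rpm; r = 0.102, rho = −0.070). miR-16-5p varied only from 134 to 219 rpm between libraries. In that list 3 had higher and 11 lower means in EWH, with a median log2 difference of −0.33, where 121 of all 303 tested miRNAs were higher and 182 lower, with a median of −0.06. Limma called 0 of the 14 (7 at an unadjusted p under 0.05, against 23.1% of all 303). By edgeR 2 were called, beside 13.2% of all 303: miR-17-5p and miR-20a-5p, lower in EWH (edgeR, Benjamini-Hochberg adjusted p = 0.0308 each). Both were highest in control 6, at 41.4 and 78.9 rpm. Which cells of the aorta samples supplied the 14 listed miRNAs was not tested.

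miRNAs known to fall as red cell precursors mature were taken as another list, of which 3 (miR-150-5p, miR-155-5p and miR-223-3p) are also white blood cell miRNAs. Its 6 tested members all had lower means in EWH, with a median log2 difference of −0.27, where 182 of all 303 were lower. Limma called 0 of the 6 (0 at an unadjusted p under 0.05, against 23.1% of all 303). By edgeR 0 were called, against 13.2% of all 303. Their r with miR-451-5p ran from −0.622 (miR-150-5p) to 0.563 (miR-223-3p). The most abundant were miR-24-3p at 5992 rpm (r = 0.467), miR-221-3p at 334 rpm (r = 0.243) and miR-150-5p at 123 rpm.

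White blood cell miRNAs gave r of both signs. miR-142-5p (r = 0.820), miR-142-3p (r = 0.667, rho = 0.825) and miR-223-3p (r = 0.563, rho = 0.720) had r above 0 with miR-451-5p, at no more than 36.5 rpm in any library. The other 4 had r below 0: miR-146a-5p (468 rpm, r = −0.414), miR-150-5p (123 rpm, r = −0.622), miR-155-5p (52.6 rpm, r = −0.323) and miR-342-3p (3.97 rpm, r = −0.292). The summed level of the 7 listed miRNAs ran from 480 to 979 rpm in control and from 483 to 849 rpm in EWH, and none of the 7 was at 0 in any library. Limma called 0 of the 7 (0 at an unadjusted p under 0.05, against 23.1% of all 303). By edgeR 0 were called, against 13.2% of all 303. The part of white blood cells in the pattern of the erythroid miRNAs was not tested.

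miR-486 is also a muscle miRNA, so it was set beside the striated muscle list. Its r was 0.250 with miR-1-3p, −0.068 with miR-206-3p, −0.301 with miR-499-5p and −0.090 with miR-133b-3p, and 0.704 with miR-133a-3p, which read 2.84 to 7.93 rpm. With the erythroid members it was 0.944 or more. With each library left out in turn, r with miR-486 ran from −0.064 to 0.406 for miR-1-3p and from −0.321 to 0.199 for miR-206-3p. It ran from −0.815 to −0.133 for miR-499-5p and from 0.570 to 0.799 for miR-133a-3p. With miR-451-5p, miR-133a-3p had r = 0.683. The part of muscle in the level of miR-486 was not tested. miR-1-3p averaged 394 ± 238 rpm in control against 807 ± 273 rpm in EWH (± SD, n = 6 per group; log2 difference 1.14, SE 0.33, limma adjusted p = 0.128, edgeR adjusted p = 0.059), while miR-486 averaged 158 and 162 rpm. The summed level of the 7 muscle miRNAs in the table ran from 429 to 1367 rpm in control and from 713 to 1439 rpm in EWH, with the heart miRNA miR-208a-3p at 0 in 11 of 12 libraries.

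Markers of the vessel wall and its surroundings were set beside miR-451-5p in the same way. Both endothelial arms ran against miR-451-5p, miR-126a-3p with r = −0.721 (rho = −0.622) and miR-126a-5p with r = −0.474 (rho = −0.182). The 3 tested fat cell miRNAs did so too: miR-378a-3p (r = −0.752, rho = −0.706), miR-378a-5p (r = −0.778, rho = −0.713) and miR-365-3p (r = −0.682, rho = −0.510). Control 1, lowest in the erythroid miRNAs, was highest in miR-126a-3p at 12218 rpm, in miR-378a-3p at 1321 rpm and in miR-365-3p at 34.7 rpm. Without it r was −0.424 for miR-126a-3p, −0.561 for miR-378a-3p and −0.477 for miR-365-3p.

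Smooth muscle miRNAs gave r of 0.465 for miR-143-3p (389300 rpm), −0.073 for miR-145-5p (1072 rpm), 0.555 for miR-145-3p (552 rpm) and 0.718 for miR-143-5p. The summed level of the 4 ran from 347013 to 426858 rpm in control and from 331968 to 428677 rpm in EWH. Limma called 0 of the 4 (0 at an unadjusted p under 0.05, against 23.1% of all 303). By edgeR 0 were called, against 13.2% of all 303. Both arms of miR-338 and miR-9a-5p, known from nerve tissue, had r between −0.020 and 0.052. All 3 had higher means in EWH, by 1.47 to 1.67 on the log2 scale, and were highest in EWH 4. Limma called 0 of the 3 (3 at an unadjusted p under 0.05, against 23.1% of all 303). By edgeR 3 were called (Benjamini-Hochberg adjusted p = 0.0308 each), against 13.2% of all 303. The 4 tested epithelial miRNAs (miR-200a-3p, miR-200b-3p, miR-200c-3p and miR-429) had r between 0.186 and 0.370. All 4 had lower means in EWH, with a median log2 difference of −1.31. Limma called 0 of the 4 (1 at an unadjusted p under 0.05, against 23.1% of all 303). By edgeR 2 were called, against 13.2% of all 303: miR-200a-3p and miR-200b-3p (Benjamini-Hochberg adjusted p = 0.0460 and 0.0331). Both were highest in control 6, at 94.7 and 501 rpm. The part of any of these cell types in the levels of the erythroid miRNAs was not tested.

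**Figure D5:**
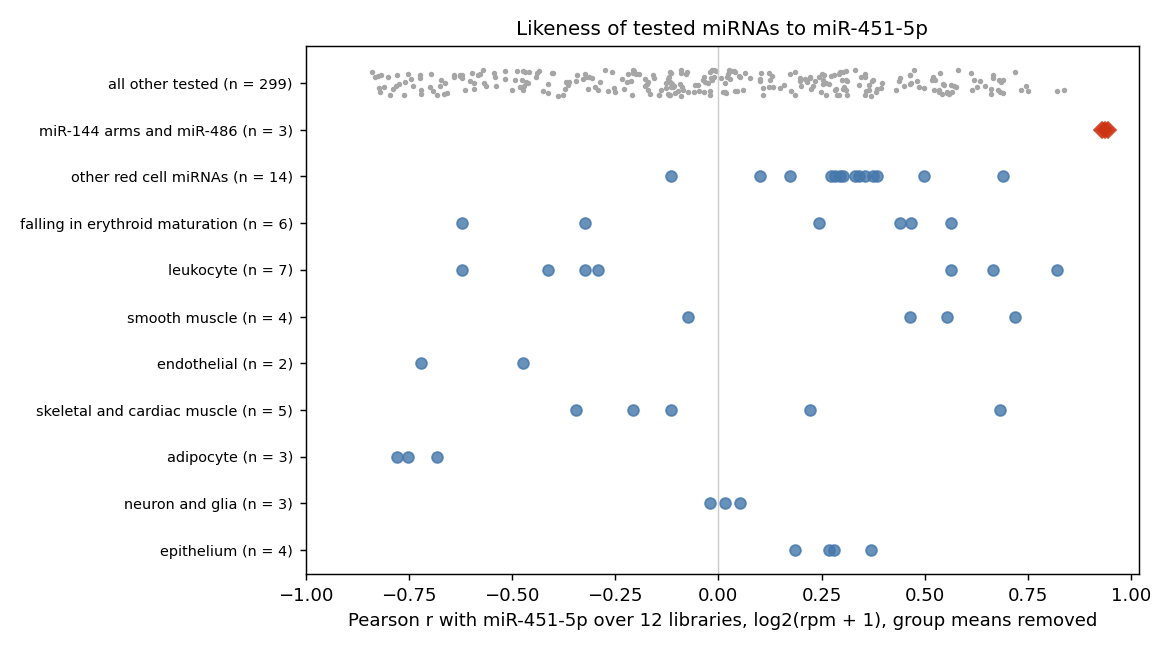
Pearson's r with miR-451-5p over 12 libraries on log2(rpm + 1) after removal of group means (horizontal axis), for the 299 other tested miRNAs (grey, scattered vertically for sight), for both miR-144 arms and miR-486 (diamonds) and for the tested members of each marker list (circles). The diamonds lie at 0.931 to 0.944, to the right of every grey point, of which the highest is at 0.838.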

How the data were processed

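Small RNA of 12 aorta samples was sequenced. The values deposited for 641 miRNAs are in RPM, whole reads scaled by a library total, although the table is named for TPM. Dividing by the value of 1 read gave whole reads for 100% of values within 0.01 read. The genome build was rn6, per the submitters' processing notes. Per the labels' protocols, Trizol RNA was ligated to adaptors and inserts of 15 to 35 nt were selected. How reads were aligned and counted is not given in the sources used here. Listed miRNAs held 76.4% to 80.6% of each total. No molecular identifiers are described, so intervals cover counting error only.

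Columns were mapped through the samples' descriptions, and groups and replicate numbers through their titles. The members, marker lists and tests were chosen with earlier results of these data known. The 303 miRNAs that reached 1 rpm in 6 or more libraries were tested with limma 3.58.1 (trend, two-sided, R 4.3.3) on log2(rpm + 1), with Benjamini-Hochberg adjustment over all 303 and a threshold of 0.05. edgeR 4.0.16 (quasi-likelihood) and DESeq2 1.42.0 on recovered reads were alternatives, beside other filters, pseudocounts, scalings, variance models, the replicate number as a block and each library left out. Ratios, correlations and figures used Python 3.11.15 and hairpins RNAfold 2.7.2. Procedures were tested on simulated data. The simulated counts gave every miRNA the same spread beyond counting error, which these data do not share, so error rates here are not known from them. The miRNAs named by rule were the members, the 5 others most like miR-451-5p and like miR-486, up to 3 most abundant tested miRNAs of each list, miR-23a-3p and seed sharers; any other miRNA was named with its values in view.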

Additional observations from a re-analysis of the deposited data

How the results depend on the processing

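No member passed under any of 24 or 25 alternatives (limma, edgeR or DESeq2, smallest Benjamini-Hochberg adjusted p = 0.283, for miR-451-5p without control 1); miR-144-3p missed the filter at 10 rpm. miR-451-5p was negative in all 25. The difference EWH minus control turned for miR-144-5p after quantile normalization (−0.061), rescaling without miR-143-3p (−0.032), with edgeR (−0.018) and with DESeq2 (−0.025). It turned for miR-144-3p at a pseudocount of 0.1 (0.0080), under median-of-ratios scaling (0.0015) and without EWH 3 and 4 together (0.21, chosen after seeing the data), and for miR-486 after quantile normalization (−0.0075). With each library left out it ran from −0.25 to 0.19 for miR-144-5p, −0.32 to 0.18 for miR-144-3p, −0.62 to −0.13 for miR-451-5p and −0.14 to 0.27 for miR-486. The number of all tested miRNAs called was 0 with limma, 8 after quantile normalization, 40 with edgeR, 63 with DESeq2, 1 without EWH 3 and 4 together and 0 to 24 with each library left out (24 without EWH 2, 1 without EWH 4); the cause was not tested. The unadjusted count under 0.05 was 70 with limma, 79 with edgeR and 88 with DESeq2. Scaling moved the median of all log2 differences from −0.06 to between −0.14 and −0.03.

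With each library left out, the log2 ratio difference ran from −0.0084 to 0.15 for miR-144-5p to miR-144-3p (negative without control 2), −0.38 to −0.18 for miR-451-5p to miR-144-3p, 0.32 to 0.47 for miR-486 to miR-451-5p (called only without control 1) and −0.26 to 0.12 for miR-451-5p to miR-23a-3p, which was 0.19 without EWH 3 and 4 together. All 6 correlations passed in all 16 alternatives. With the replicate number as a block, the differences were 0.04 for miR-144-5p, −0.03 for miR-144-3p, −0.32 for miR-451-5p and 0.09 for miR-486, as without it. With the block, 0 of 303 miRNAs passed. For the ratios the block was a sign-flip test over 64 flips, which cannot give a ratio on its own an adjusted p under 0.05. By these sign flips miR-486 to miR-451-5p had an adjusted p of 0.125, so that missed threshold decides nothing. The labels do not say that the replicate numbers pair samples. Same-numbered libraries correlated at −0.50 to 0.31, over 0.1 in 3 of 6 pairs, and 1 of 12 libraries correlated best with its own number.

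Depth limits miR-451-3p, at 0 to 5 reads. None of 18 checks of a group of 6 found a library farther from the others than Dixon's critical value of 0.625.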

Other observations

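The miRNAs that ran most strongly against miR-451-5p, named after their values were seen, were miR-203b-5p (r = −0.838, rho = −0.776), miR-203b-3p (r = −0.831, rho = −0.720), miR-203a-3p (r = −0.824, rho = −0.776), miR-30c-1-3p (r = −0.823, rho = −0.755) and miR-3557-3p (r = −0.819, rho = −0.699), over 12 libraries with group means removed and with no test. miR-203, known from skin and other layered epithelia, was also among the 5 most opposed to miR-486, with r from −0.760 to −0.736 for its 3 rows. miR-203a-3p ran from 33.6 to 572 rpm in control and from 39.6 to 172 rpm in EWH. Without control 1 its r with miR-451-5p was −0.682. The miR-200 miRNAs, which are known from epithelia too, had r from 0.267 to 0.370 with miR-451-5p.

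The erythroid miRNAs covered a 4.70- to 8.28-fold range while miR-16-5p, which red cells also hold in quantity, stayed between 134 and 219 rpm. Which cells of the aorta samples supplied miR-16-5p was not tested. The ratio of miR-486 to miR-451-5p, with 1.33-fold higher values in EWH, missed the threshold after adjustment.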
